A study of Mus musculus with 21 samples.

Results

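The genes of glucose transport and glycolysis were examined in B cell subsets of the mouse peritoneal cavity. The group comprised 10 genes chosen by name for their role in the pathway, at a time when earlier results of these data were known: the glucose transporters Slc2a1 and Slc2a3, and the enzymes Hk1, Hk2, Pfkl, Aldoa, Pgk1, Eno1, Pkm and Ldha. Each of the 10 was matched by its GENCODE symbol to 1 of the 56953 genes in the count files. RNA was sequenced from sorted cells of the B-1a, B-1b or B-2 subset of C57BL/6 mice that were wild type (WT) or lacked TET2 (TET2-KO). There were 21 libraries. For B-1a cells each genotype had 4, for B-1b cells 4 were WT and 3 TET2-KO, and for B-2 cells 2 were WT and 4 TET2-KO. TET2 oxidizes methylated cytosine in DNA, and the knockout removed the exons that encode its catalytic region in the whole animal, so differences between genotypes need not arise in the B cells themselves. B-1a cells were gated as IgD-lo, CD23-lo, B220-lo and CD5+, and B-1b cells in the same way but CD5-. The mice were young, and their exact age is not given in the sources used here.

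Glycolysis splits glucose into pyruvate in the cytosol. Facilitative transporters of the Slc2a family bring glucose into the cell, hexokinases trap it as glucose 6-phosphate, phosphofructokinase commits it to the pathway, and the later enzymes cut the sugar and recover ATP and NADH before pyruvate kinase makes pyruvate and lactate dehydrogenase turns it into lactate. Activated lymphocytes raise glucose uptake and lactate production, and B-1 cells, which renew themselves in the body cavities, are known to rely on glycolysis more than resting follicular B-2 cells do. Genes of the pathway are known targets of HIF-1, which binds a core ACGTG or GCGTG, and of MYC, which binds the E-box CACGTG.

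Promoter sequences were available from RefSeq (table built on GRCm38.p6) for 9 of the 10 genes, in 16 windows of 300 bases around the start of transcription; Slc2a3 had none. ACGTG or its reverse complement CACGT was present in 8 of the 16 windows (50%) and in 19.6% of all 32851 windows of the table. The E-box CACGTG, whose letters contain both ACGTG and CACGT, was present in 1 of the 16 windows, that of Ldha, and in 7.15% of all windows. GCGTG or CACGC was present in 8 of the 16 windows and in 32.4% of all windows. Several genes had more than 1 window, so the 16 windows count some genes repeatedly. Each window of Eno1, for example, held 2 matches to GCGTG or CACGC. By gene, ACGTG or CACGT was in any window of 7 of the 9. A match is a description of the letters only. The 4 promoters shown are those of the transporter Slc2a1, of Ldha, which makes lactate and holds the E-boxes, and of Tpi1 and Pfkfb3, genes of the pathway outside the 10 that differed between subsets below; they were chosen after the values had been seen. Of 2 windows each for Ldha and Pfkfb3, the one with more matches is shown. By exact match in GRCm39 the windows lie at chr4:118965692-118965991 (plus strand), chr7:46494978-46495277 (plus strand), chr6:124791072-124791371 (minus strand) and chr2:11506852-11507151 (minus strand). Capitals mark ACGTG and CACGT on the strand of the gene, and the other letters are in lower case.
Slc2a1: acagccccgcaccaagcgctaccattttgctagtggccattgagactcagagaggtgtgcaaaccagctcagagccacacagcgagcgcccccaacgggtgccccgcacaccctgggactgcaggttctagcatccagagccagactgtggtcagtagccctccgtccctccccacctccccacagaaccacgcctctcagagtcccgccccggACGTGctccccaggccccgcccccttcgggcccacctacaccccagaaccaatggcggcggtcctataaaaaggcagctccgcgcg
Ldha: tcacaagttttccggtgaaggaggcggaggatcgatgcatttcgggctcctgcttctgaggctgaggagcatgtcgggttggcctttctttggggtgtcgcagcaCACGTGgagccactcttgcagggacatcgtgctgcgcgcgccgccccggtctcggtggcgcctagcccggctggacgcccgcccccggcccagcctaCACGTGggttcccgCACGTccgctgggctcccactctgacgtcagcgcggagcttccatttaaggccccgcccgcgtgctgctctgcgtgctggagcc
Tpi1: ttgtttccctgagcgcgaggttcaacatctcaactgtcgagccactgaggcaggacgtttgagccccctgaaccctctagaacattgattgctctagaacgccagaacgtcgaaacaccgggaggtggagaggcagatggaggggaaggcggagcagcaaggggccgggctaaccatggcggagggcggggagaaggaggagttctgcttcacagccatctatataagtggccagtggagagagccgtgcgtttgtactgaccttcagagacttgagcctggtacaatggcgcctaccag
Pfkfb3: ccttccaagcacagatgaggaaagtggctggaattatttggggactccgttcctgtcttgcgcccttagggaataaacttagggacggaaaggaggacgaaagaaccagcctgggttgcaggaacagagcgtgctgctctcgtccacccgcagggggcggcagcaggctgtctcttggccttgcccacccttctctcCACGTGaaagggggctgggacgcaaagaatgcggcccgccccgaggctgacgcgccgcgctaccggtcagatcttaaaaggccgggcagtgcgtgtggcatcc
The Ldha window held 2 complete E-boxes and a further CACGT, the Pfkfb3 window 1 E-box and the Slc2a1 window a single ACGTG. None of these motifs was found in the Tpi1 window, which says only that the letters are not in these 300 bases.

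Total counts ranged from 9667187 to 24152518 per library, and between 17816 and 35576 genes had at least 1 count, with the 4 B-2 TET2-KO libraries at 27669 or more. Every one of the 10 genes was counted in every library, from 28 counts (Hk2) to 29828 (Eno1). The deleted gene itself was no check of the labels, since Tet2 RNA was counted over all its exons and ranged from 8.46 to 27.2 CPM (counts scaled to library size, with TMM factors) in WT and from 12.6 to 30.3 CPM in TET2-KO libraries. Subset markers fitted the labels in all TET2-KO libraries and in the WT libraries numbered 3 and 4. They went against the labels in the 5 libraries labelled WT 1 or WT 2: Fcer2a, the B-2 marker CD23, was at 815 CPM in the library labelled B-1a WT 1 and at 598 CPM in that labelled B-1b WT 2, against a range of 4.61 to 17.5 CPM in B-1a and of 484 to 834 CPM in B-2 libraries of TET2-KO mice, and the library labelled B-2 WT 1 had 24.2 CPM. Cd5, which marks B-1a cells, was at 1.64 CPM in the library labelled B-1a WT 2 and at 18.7 CPM in that labelled B-1b WT 1. In TET2-KO libraries it ranged from 15.9 to 21.1 CPM in B-1a and from 2.95 to 5.10 CPM in B-1b cells. For the WT comparisons, values with these 5 left out are therefore given as well. RNA of macrophages was present throughout, with all 14 macrophage markers counted in every library and their summed level between 4549 and 30888 CPM. In such bulk samples fewer cells of a type and less RNA per cell cannot be told apart.

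The transcripts of the 10 genes spanned a wide range of levels along the pathway. Per kilobase of exon, Aldoa (aldolase A) had the highest median over the 21 libraries at 270 CPM per kb, followed by Ldha (lactate dehydrogenase A) at 234, Eno1 (enolase 1) at 203, Pkm (muscle-type pyruvate kinase) at 91.8, Pgk1 (phosphoglycerate kinase 1) at 38.7, Slc2a1 (GLUT1) at 22.1, Pfkl (liver-type phosphofructokinase) at 13, Hk1 at 5.63, Slc2a3 (GLUT3) at 2.11 and Hk2 at 0.777 CPM per kb. The transporters and the first kinases were thus the least abundant transcripts of the group, and enzymes of later steps the most abundant. Between its lowest and highest library each gene varied from 2.15-fold (Pgk1) to 3.70-fold (Ldha).

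At most steps a single isozyme supplied nearly all transcripts. Aldoa made up between 95.3% and 98.5% of the summed CPM per kb of the 3 aldolases, Eno1 between 90.1% and 99% of the 3 enolases, Ldha between 98.1% and 100% of Ldha and Ldhb, and Pkm at least 99.7% of Pkm and Pklr. Pfkl accounted for a median of 71.2% of the phosphofructokinases with Pfkp, the platelet type, at 25.1%, and Hk1 for a median of 74.2% of the 5 hexokinases, with Hk3 at 12.8% and Hk2 at 9.65%. Slc2a1 led the 6 glucose transporters with a median of 63.6%, ahead of Slc2a6 at 22.1%, Slc2a8 at 9.19% and Slc2a3 at 5.59%. Slc2a4, the insulin-responsive transporter, had 1 count in 1 library and none in the others.

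**Figure D1:**
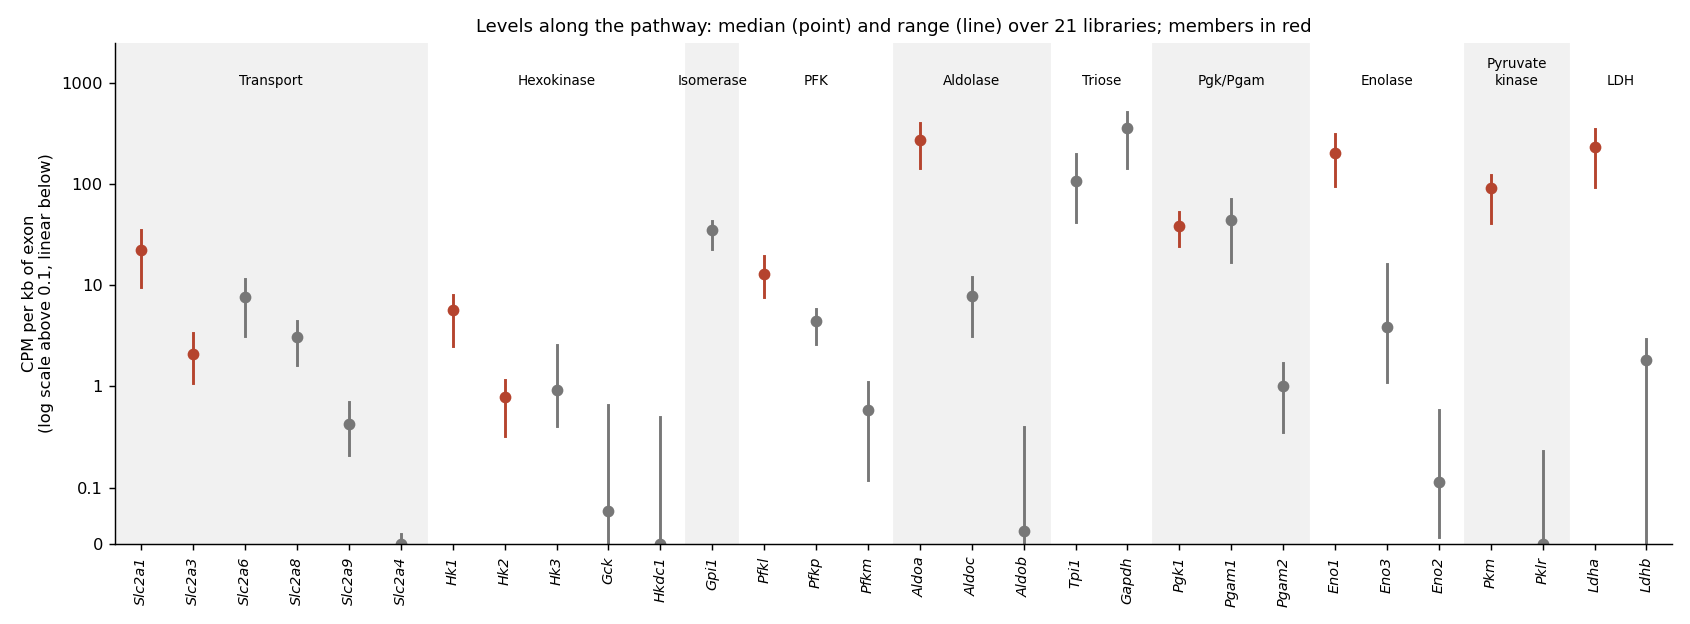
Level of each transporter and enzyme transcript in CPM per kilobase of exon (vertical axis, logarithmic above 0.1 and linear below), ordered by step of the pathway; points are medians and lines the range over 21 libraries, with the 10 genes of the group in red. Aldoa, Eno1 and Ldha have medians above 200 CPM per kb, and Hk2 has the lowest median of the 10 at 0.777.

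The first question was whether the subsets differed, and the 11 TET2-KO libraries answer it on labels that the markers bear out. Of the 10 genes, 1 passed the test between B-1a and B-2 cells (adjusted p under 0.05, edgeR quasi-likelihood test, Benjamini-Hochberg over 18555 genes), against 5.82% of all genes tested. That gene was Slc2a3, the high-affinity transporter GLUT3. Its level was 7.81, 9.71, 9.62 and 8.60 CPM in TET2-KO B-1a libraries 1 to 4, and 12, 16.2, 16 and 17.2 CPM in the B-2 libraries. Every B-1a library lay below every B-2 library, as for 10.1% of all genes tested. Slc2a3 was lower in B-1a cells by a log2 fold change of -0.82 (SE 0.23, 95% interval -1.30 to -0.33, adjusted p = 0.046). The call remained without B-2 library 1 and was lost in the other 7 of 8 fits that left out 1 library, with adjusted p between 0.045 and 0.13 and log2 fold changes between -0.94 and -0.74, and lost without the filter on low counts (adjusted p = 0.12).

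TET2-KO B-1b cells held Slc2a3 at 12.9, 13.5 and 20.0 CPM, within the range of B-2 cells except for the highest library. The log2 fold change between B-1b and B-2 cells was -0.04 (95% interval -0.55 to 0.48, adjusted p = 0.95). All 4 B-1a libraries were below all 3 B-1b libraries, with a log2 fold change of -0.78 (SE 0.24, adjusted p = 0.57), which did not pass the test. Groups did not overlap in that direction for 3.07% of genes. Of the 10 genes 0 passed between B-1a and B-1b cells, where 0.205% of all genes did.

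Slc2a1, the widely expressed transporter GLUT1, leaned the other way. It was at 71.8, 65.2, 96.0 and 47.3 CPM in TET2-KO B-1a, at 86.0, 73.9 and 85.9 CPM in B-1b, and at 50.1, 39.9, 76.3 and 33.9 CPM in B-2 libraries. B-2 library 3 overlapped both B-1 groups. The log2 fold change against B-2 cells was 0.46 for B-1a (95% interval -0.07 to 0.98, adjusted p = 0.26) and 0.67 for B-1b cells (95% interval 0.11 to 1.24, adjusted p = 0.19), and neither passed. The 16 libraries other than those labelled WT 1 and WT 2 were also fitted together, with subset and genotype as terms, a fit added after the values had been seen. There Slc2a1 passed in B-1a against B-2 cells with a log2 fold change of 0.58 (adjusted p = 0.049) and in B-1b against B-2 cells with 0.75 (adjusted p = 0.030). Slc2a3 passed in B-1a cells with -0.81 against B-2 (adjusted p = 0.0041) and -0.82 against B-1b cells (adjusted p = 0.034). Of all genes 11.3%, 4.77% and 0.358% passed in B-1a against B-2, B-1b against B-2 and B-1a against B-1b cells. These 16 libraries include the 11 just described, so they are not a second experiment.

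Among the enzymes, Pkm leaned furthest towards B-1 cells in both comparisons with B-2 cells, although no enzyme passed the test in any of the 3 TET2-KO comparisons. Pkm was at 531, 459, 435 and 318 CPM in B-1a, at 530, 417 and 450 CPM in B-1b, and at 373, 265, 398 and 207 CPM in B-2 libraries. All 3 B-1b libraries were above all 4 B-2 libraries, as for 7.99% of all genes tested. Its log2 fold change was 0.46 for B-1a over B-2 (95% interval -0.01 to 0.93) and 0.54 for B-1b over B-2 (95% interval 0.04 to 1.05), with adjusted p = 0.21 and 0.23. In the comparison of B-1b with B-2 cells, 2.15% of all genes passed and 0 of the 10. Ldha was at 963, 779, 714 and 512 CPM in B-1a and at 670, 491, 691 and 313 CPM in B-2 libraries, and its log2 fold change of 0.43 had an interval from -0.13 to 0.98. For Eno1 the log2 fold change of B-1a over B-2 was 0.33 (95% interval -0.16 to 0.81), for Aldoa 0.30 (-0.13 to 0.74) and for Pgk1 0.22 (-0.14 to 0.59). A doubling in B-1a over B-2 cells lay outside the interval for each of these 5 enzymes, and smaller differences could not be told from the spread between libraries.

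The early kinases included both the smallest differences between B-1a and B-2 cells and the least precise ones. Hk1, the constitutive hexokinase, had a log2 fold change of 0.11 for B-1a over B-2 (95% interval -0.45 to 0.68), and Pfkl one of -0.03 (-0.58 to 0.52). Hk2, the inducible hexokinase, was the least abundant gene of the group. It was at 5.17, 6.12, 5.01 and 3.93 CPM in B-1a, at 3.78, 1.93 and 2.55 CPM in B-1b, and at 3.53, 1.98, 3.39 and 6.91 CPM in B-2 libraries. Every B-1a library exceeded every B-1b library, as for 2.98% of genes, with a log2 fold change of 0.88 (95% interval -0.18 to 1.95, adjusted p = 0.86). The highest Hk2 level in B-2 cells was in library 4, the shallowest of all.

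**Figure D2:**
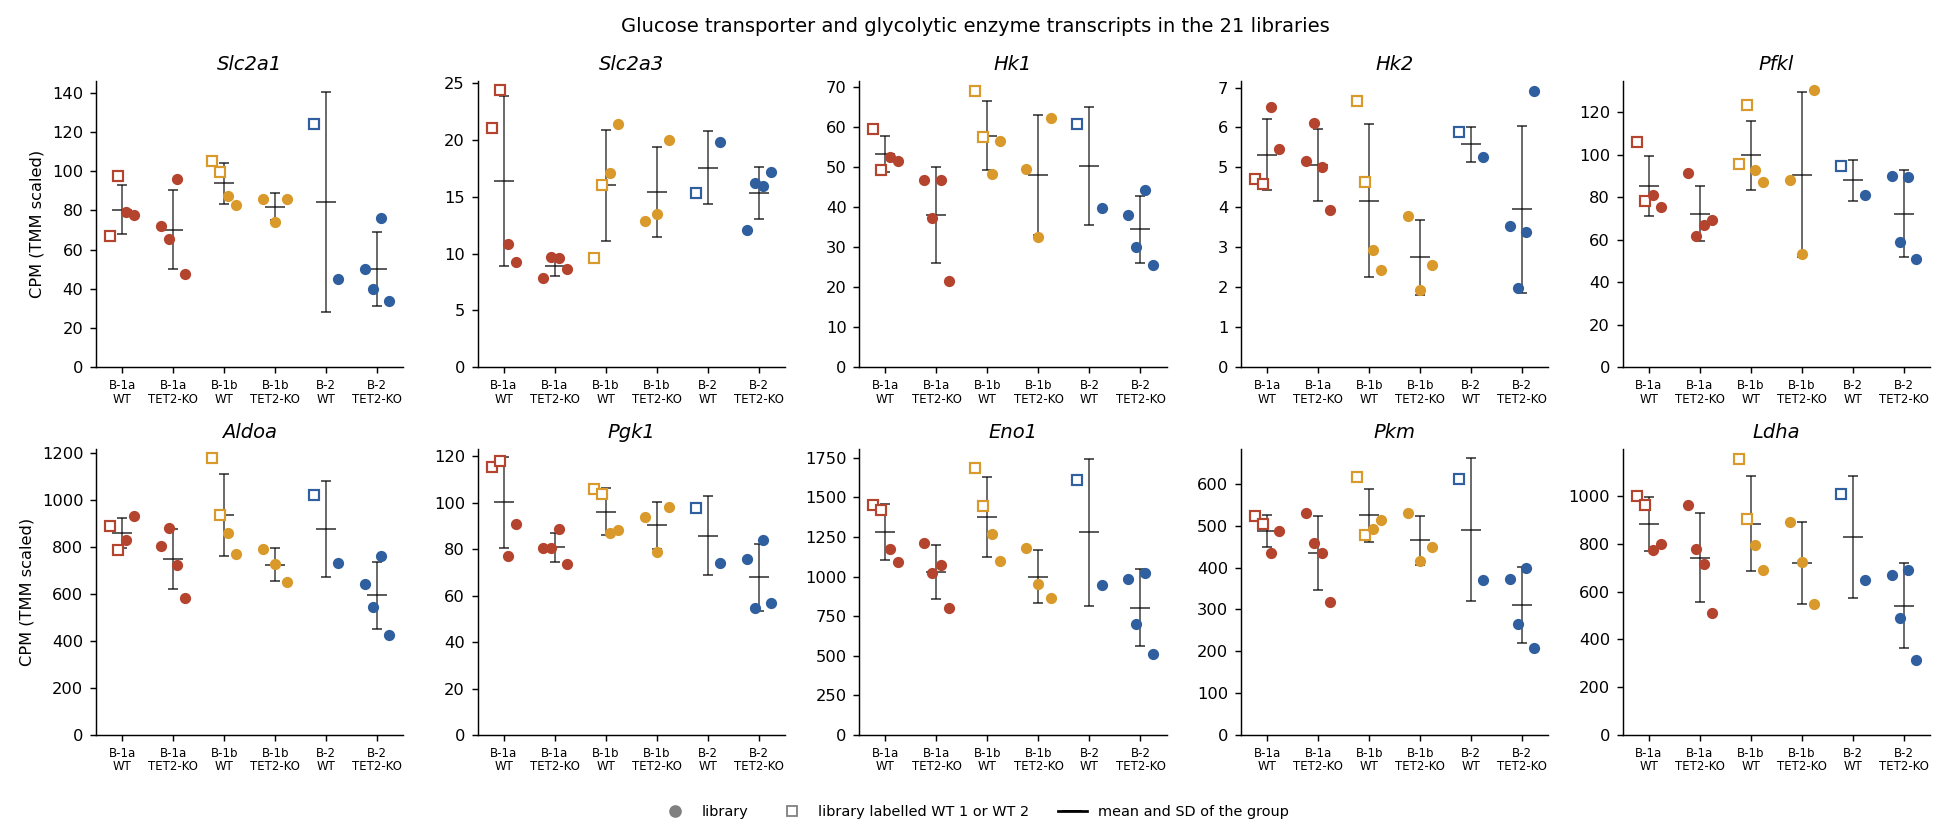
CPM of each of the 10 genes (vertical axes start at 0) in the 6 groups; filled circles are libraries, open squares the 5 libraries labelled WT 1 or WT 2, and bars the mean and SD of all libraries of a group. Slc2a3 in the 4 B-1a TET2-KO libraries (7.81 to 9.71 CPM) lies below the 4 B-2 TET2-KO libraries (12 to 17.2 CPM), whereas the enzymes overlap between these groups.

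As a group the 10 genes had a median log2 fold change of 0.31 for TET2-KO B-1a over B-2 cells and 0.33 for B-1b over B-2 cells, with 8 of 10 above 0 in each. The median over all genes tested was -0.05 and -0.10, respectively. With RLE in place of TMM scaling the medians of the 10 fell to 0.20 and 0.25. Without B-2 library 4 they were 0.18 and 0.17, and the first was 0.19 without B-2 library 2 and 0.20 without B-1a library 1. The 2 comparisons share the B-2 libraries. Between B-1a and B-1b cells the median was -0.12, with 4 of 10 above 0 and an all-gene median of 0.04, and it ran from -0.19 (without B-1b library 2) to -0.01 (without B-1a library 4), with -0.04 without B-1b library 1. Several values moved with this contrast. TET2-KO B-2 libraries had between 27669 and 35576 genes with a count, TET2-KO B-1a libraries between 18941 and 28140 and B-1b libraries between 17816 and 26360, and across the 21 libraries the mean profile of the 10 genes had r = -0.71 with that number, as a description in which both share library quality and depth. The part of this in the differences was not tested. The summed levels of the 14 macrophage markers in TET2-KO libraries ranged from 4996 to 29375 CPM in B-1a, from 6552 to 15637 CPM in B-1b and from 4549 to 20285 CPM in B-2 cells. None of these markers passed between B-1a and B-2 TET2-KO cells. Of the 8 proliferation markers 0 passed.

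**Figure D3:**
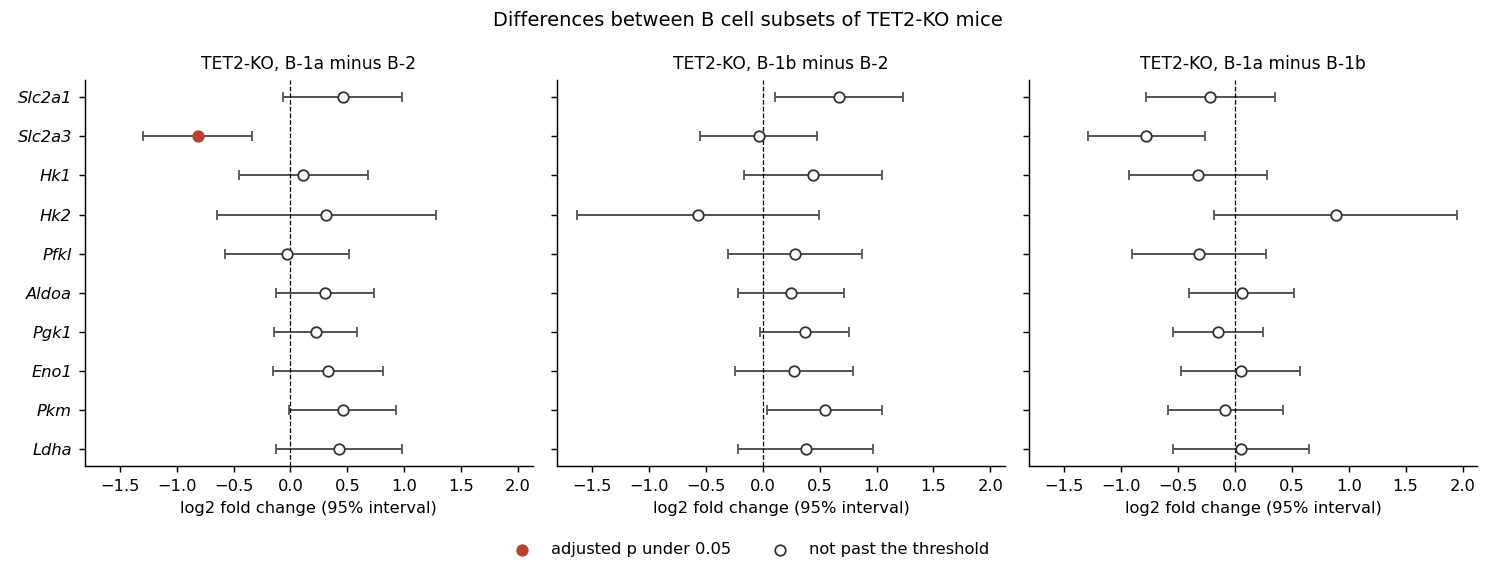
Log2 fold change (horizontal axis) with its 95% interval for the 10 genes in the 3 comparisons of TET2-KO subsets; the filled point is the only value past an adjusted p of 0.05 in these fits. Slc2a3 is at -0.82 in B-1a minus B-2, while 8 of the 10 points lie above 0 in each comparison with B-2 cells.

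Because 2 genes of 1 library share its scaling, their ratio does not depend on normalization between libraries. Slc2a1 over Slc2a3, per kilobase, was 19.0, 13.9, 20.6 and 11.4 in TET2-KO B-1a, 13.8, 11.3 and 8.87 in B-1b, and 8.61, 5.08, 9.88 and 4.08 in B-2 libraries. All B-1a ratios exceeded all B-2 ratios, and B-1b ratios lay between and overlapped both. The WT libraries numbered 3 and 4 gave 15.2 and 17.2 in B-1a, 10.6 and 8.01 in B-1b and 4.67 in the single B-2 library. The libraries labelled WT 1 and WT 2 gave 6.58 and 8.26 for B-1a, 22.6 and 12.9 for B-1b, and 16.8 for B-2. The ratio was formed after the values had been seen and was not tested.

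**Figure D4:**
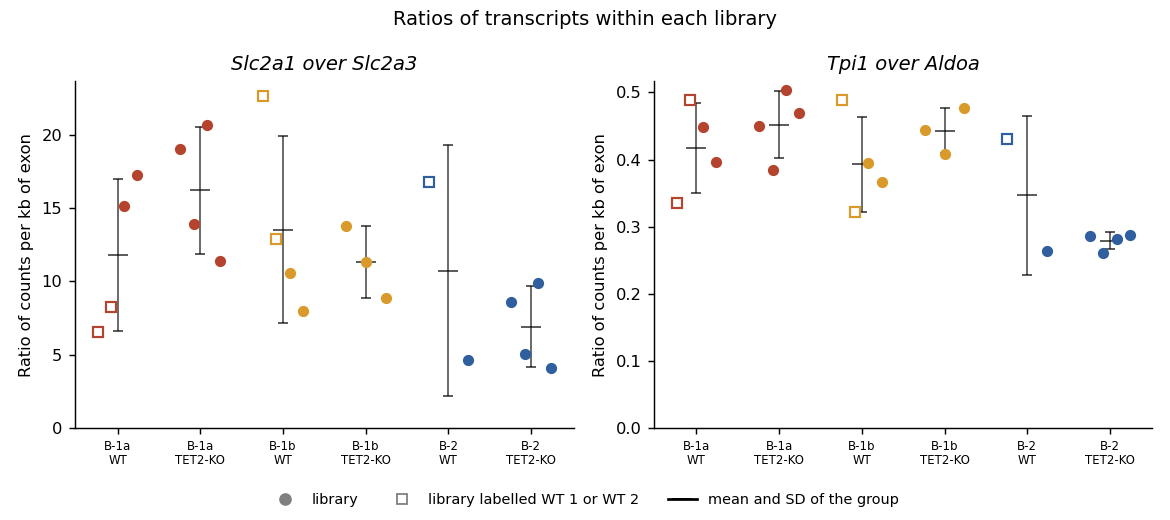
Ratios of counts per kilobase of exon within each library, Slc2a1 over Slc2a3 (left) and Tpi1 over Aldoa (right), by group; symbols as for the levels, with open squares for the libraries labelled WT 1 or WT 2. In TET2-KO libraries the left ratio spans 11.4 to 20.6 in B-1a and 4.08 to 9.88 in B-2, and the right ratio 0.385 to 0.503 in B-1a and 0.261 to 0.288 in B-2. Both ratios were formed after the values had been seen and were not tested.

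The 10 genes are only some of the pathway, and among its other genes a few differences between subsets were larger. Of 20 other transport and glycolysis genes, 16 could be tested, and 1 passed in B-1a against B-2 and 1 in B-1b against B-2 cells, where 5.82% and 2.15% of all genes passed. In both cases this was Tpi1, the triose phosphate isomerase that interconverts the products of aldolase. Tpi1 was at 343, 320, 343 and 259 CPM in TET2-KO B-1a, at 331, 282 and 293 CPM in B-1b, and at 173, 135, 203 and 116 CPM in B-2 libraries. Every B-1b library lay above every B-2 library, as for 7.99% of all genes tested. The log2 fold change was 0.98 for B-1a (SE 0.19, adjusted p = 0.0052) and 0.91 for B-1b cells (SE 0.20, adjusted p = 0.028). Tpi1 over Aldoa within a library was 0.450, 0.385, 0.503 and 0.470 in B-1a, 0.444, 0.409 and 0.477 in B-1b, and 0.286, 0.261, 0.282 and 0.288 in B-2 libraries. This ratio was also formed after the values had been seen, from a gene that had passed, and is no separate test. Gapdh, Gpi1 and Pgam1 had log2 fold changes of 0.36, 0.37 and 0.49 for B-1a over B-2 cells, and none passed. Ldhb was at or below 4.67 CPM everywhere.

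Pfkfb3 makes fructose 2,6-bisphosphate, the strongest allosteric activator of phosphofructokinase. Of 7 genes that make or break down fructose bisphosphates 5 could be tested. Pfkfb3 alone passed, in both comparisons with B-2 cells, where 5.82% and 2.15% of all genes passed. Its level was 38.1, 35.9, 30.7 and 27.6 CPM in TET2-KO B-1a, 29.3, 28.1 and 33.9 CPM in B-1b, and 10.5, 12, 12.1 and 10.1 CPM in B-2 libraries. All B-1b libraries were above all B-2 libraries, as for 7.99% of all genes tested. The log2 fold change was 1.53 for B-1a (SE 0.18, adjusted p = 7.9e-05) and 1.40 for B-1b cells (SE 0.19, adjusted p = 0.00070). Leaving out any 1 library kept both calls, with values between 1.40 and 1.61 in B-1a and between 1.27 and 1.47 in B-1b cells. For Tpi1 the 8 such fits kept the B-1a call, and 2 of 7 kept the B-1b call (log2 fold changes between 0.80 and 0.97, adjusted p between 0.015 and 0.15). In one fit of all 21 libraries the B-1b calls of both genes were lost (adjusted p = 0.11 for Tpi1 and 0.079 for Pfkfb3).

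Of 15 genes of lactate and pyruvate handling, 1 passed in B-1a against B-2 cells, Pdk3, a kinase that switches off pyruvate dehydrogenase (log2 fold change 0.88, SE 0.24, adjusted p = 0.041), and 0 passed in B-1b cells. Called shares such as 1 of 15, 1 of 16 or 1 of 20 genes are near the 5.82% of all genes called in B-1a against B-2 cells. None of the 7 pentose phosphate genes passed in either comparison. Of 21 regulators of glycolysis, 20 were tested and Myc passed in B-1a cells. Myc was at 320, 304, 310 and 129 CPM in B-1a, at 272, 220 and 234 CPM in B-1b, and at 114, 83.6, 131 and 42.4 CPM in B-2 libraries. B-1a library 4 reached into the B-2 range, and the log2 fold change was 1.49 (SE 0.32, adjusted p = 0.011) for B-1a and 1.35 (SE 0.34, adjusted p = 0.051) for B-1b cells. Hif1a had log2 fold changes of 0.59 and 0.72, and Txnip, which restrains glucose uptake, of 0.07 and 0.32, none past the threshold. Of 13 other hypoxia response genes tested, Adm rose by a log2 fold change of 3.42 (adjusted p = 0.00016) and Bnip3, a mitophagy receptor, fell with a log2 fold change of -1.57 (adjusted p = 0.040) in B-1a against B-2 cells, so the list did not move in 1 direction. Between TET2-KO B-1a and B-1b cells 0 genes of these lists passed.

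**Figure D5:**
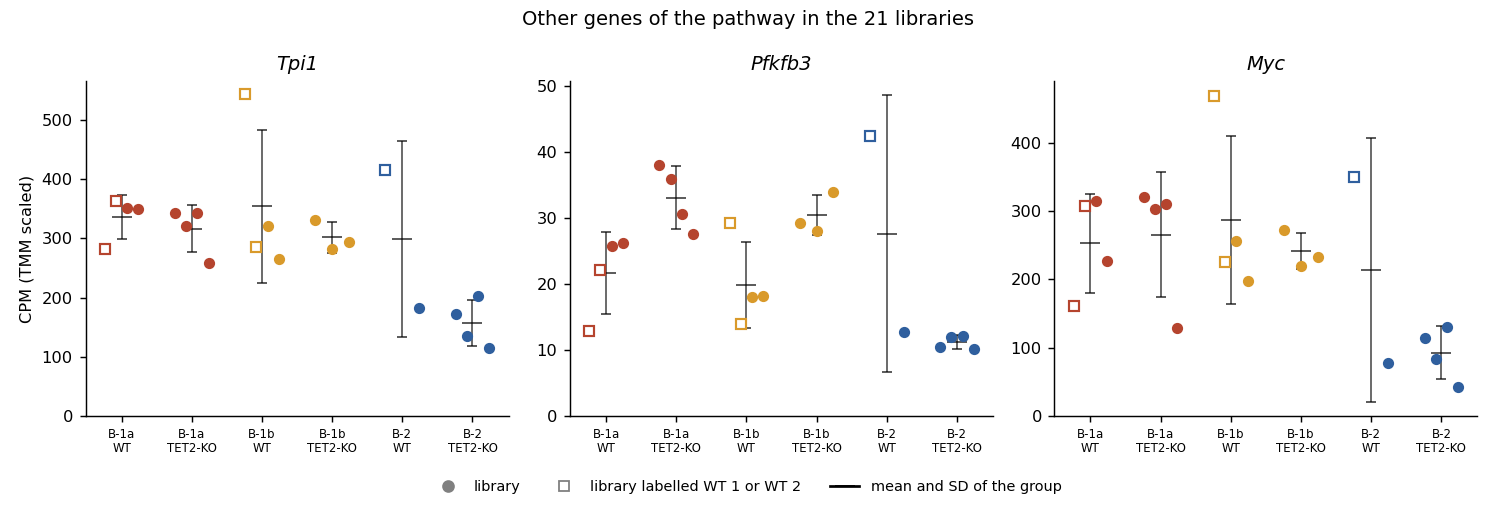
CPM of Tpi1, Pfkfb3 and Myc (vertical axes start at 0) by group; filled circles are libraries, open squares the libraries labelled WT 1 or WT 2, and bars the mean and SD. Pfkfb3 lies between 27.6 and 38.1 CPM in the 7 TET2-KO B-1 libraries (B-1a and B-1b) and between 10.1 and 12.1 CPM in the 4 TET2-KO B-2 libraries.

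In WT cells 0 of the 10 genes passed between any pair of subsets when all libraries entered under their labels, and neither did any of the 16769 genes tested (0%). At an unadjusted p under 0.05 there were 165 genes for B-1a against B-2, 158 for B-1b against B-2 and 206 for B-1a against B-1b cells, and DESeq2 called 2, 1 and 0 genes. With the 5 doubtful libraries removed, the comparison rested on 2 B-1a, 2 B-1b and 1 B-2 library, and the single B-2 library is assumed to vary like the others. In these 5 libraries 7.16% of genes passed between B-1a and B-2, 5.53% between B-1b and B-2 and 3.22% between B-1a and B-1b cells. Of the 10 genes, Slc2a1 and Slc2a3 passed in the first, Slc2a1 in the next and Slc2a3 in the last. Slc2a1 was at 79.4 and 77.4 CPM in B-1a, 87.4 and 82.8 CPM in B-1b and 44.7 CPM in the B-2 library, with log2 fold changes of 0.81 (adjusted p = 0.0030) and 0.92 (adjusted p = 0.0013) over B-2 cells. Slc2a3 was at 10.8 and 9.28 CPM in B-1a, 17.1 and 21.4 CPM in B-1b and 19.8 CPM in the B-2 library. Its log2 fold change for B-1a was -0.98 against B-2 (adjusted p = 0.011) and -0.92 against B-1b cells (adjusted p = 0.0082). In the same 5 libraries Tpi1 had log2 fold changes of 0.95 (adjusted p = 0.00076) in B-1a and 0.68 (adjusted p = 0.020) in B-1b over B-2 cells, and Pfkfb3 of 1.03 (adjusted p = 0.0040) and 0.49 (adjusted p = 0.24). With all WT libraries the values were -0.15 and 0.02 for Slc2a3 in B-1a against B-2 and against B-1b cells, and -0.10 and 0.12 for Slc2a1 in B-1a and B-1b against B-2 cells.

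The second question was whether loss of TET2 changed these transcripts. Of the 10 genes 0 passed between TET2-KO and WT in B-1a cells, where 0.0503% of all genes did, and 0 passed in B-1b and in B-2 cells, where 0% of all genes did (787 of 14368 and 1754 of 19786 genes at an unadjusted p under 0.05, and 52 and 162 genes by DESeq2). All 10 had lower fitted levels in TET2-KO in each subset, with median log2 fold changes of -0.21 in B-1a, -0.20 in B-1b and -0.53 in B-2 cells, beside all-gene medians of 0.02, -0.01 and 0.18. With those labelled WT 1 and WT 2 left out, the medians of the 10 were -0.14, -0.08 and -0.23, and 10, 7 and 9 of the 10 were lower. In B-1b cells Hk2 (0.04), Pfkl (0.02) and Pgk1 (0.05) then lay above 0, and in B-2 cells Slc2a1 (0.18). Without B-1b TET2-KO library 2 alone the B-1b median was -0.09. The summed level of the 10 genes in WT cells was 1043 ± 185 CPM per kb (SD, n = 4) in B-1b, 988 ± 79.8 (n = 4) in B-1a and 972 ± 295 (n = 2) in B-2 cells. Over WT libraries 3 and 4 it was 909 ± 64.3 (n = 2) in B-1b and 923 ± 29.9 (n = 2) in B-1a cells, and 763 in the single B-2 library. With TET2 deleted it was 832 ± 148 (n = 4) in B-1a, 830 ± 111 (n = 3) in B-1b and 641 ± 178 (n = 4) in B-2 cells. Neighbours in the order of the values over all libraries differed by less than the SD of each, except that TET2-KO B-1b and B-2 cells differed by more than both SDs, which was not tested as a sum.

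Slc2a3 had the largest fitted difference between genotypes in B-1a cells, -0.83 on the log2 scale (95% interval -1.52 to -0.14, adjusted p = 0.60). The WT libraries were at 21 and 24.4 CPM in those labelled WT 1 and WT 2 and at 10.8 and 9.28 CPM in WT 3 and WT 4, while TET2-KO libraries lay between 7.81 and 9.71 CPM. Leaving out the 2 libraries whose markers went against their label brought the log2 fold change to -0.16 (95% interval -0.73 to 0.41). Hk1 was the only one of the 10 whose libraries did not overlap between genotypes. It was at 59.5, 49.1, 52.3 and 51.4 CPM in WT and at 46.8, 37.1, 46.7 and 21.4 CPM in TET2-KO B-1a libraries. All TET2-KO libraries were lower, as for 3.38% of genes, with a log2 fold change of -0.45 (95% interval -0.95 to 0.05, adjusted p = 0.64), and -0.44 against WT 3 and WT 4 alone. Slc2a1 had log2 fold changes of -0.16 in B-1a (95% interval -0.63 to 0.31), -0.16 in B-1b (-0.49 to 0.16, and -0.05 over the libraries left after WT 1 and WT 2 were removed) and -0.73 in B-2 cells (-1.71 to 0.25). In B-2 cells the WT libraries were at 124 and 44.7 CPM, the first above and the other within the TET2-KO range of 33.9 to 76.3 CPM, and without the library labelled WT 1 the value was 0.18. Whether TET2 loss acted differently in B-1a and B-1b cells was tested as an interaction, which passed for 0 of the 10 genes and 0 of 15972 genes (0%), with 250 genes at an unadjusted p under 0.05 and 1 by DESeq2. Without the doubtful libraries 0 of 17107 genes passed, and the fitted difference for Slc2a3 went from -0.82 to 0.15.

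Of the 10 genes, 8 varied together across the 21 libraries, and Slc2a3 and Hk2 did not. Slc2a3 and Hk2 had the lowest median CPM of the 10, with 124 to 461 and 28 to 103 counts per library. Their r with the number of genes with a count was -0.07 and -0.12, while that of the other 8 lay between -0.83 and -0.53. The part of depth and library quality in this split was not tested. Among the 28 pairs of the 8, Pearson's r of log2 CPM lay between 0.51 and 0.97 with a median of 0.79, while Slc2a3 had r between -0.35 and 0.24 and Hk2 between -0.35 and 0.31 with the others. Over all 45 pairs r had a median of 0.67, from -0.35 (Hk2 with Slc2a3) to 0.97 (Ldha with Eno1), as a description in which all points share library depth and scaling. Of 22587 other genes, those most like the mean profile of the 10 were Arhgdia (r = 0.97), Fam136a (0.96), Atp5f1b (0.96), Cct3 (0.96), Atp5f1a (0.96), Tcp1 (0.96), Cnp (0.96), Psmd2 (0.95), Psme3 (0.95) and Tmem50b (0.95). Atp5f1a and Atp5f1b encode subunits of the mitochondrial ATP synthase, Cct3 and Tcp1 subunits of the chaperonin TRiC, and Psmd2 and Psme3 parts of the proteasome system. Over the other 16 libraries these r values lay between 0.92 and 0.95.

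Several of these genes have near-identical copies or neighbours that could take some of their fragments. Slc2a1, Slc2a3, Hk2 and Pfkfb3 had no copy with at least 95% identity over 300 bases. Counts on such copies were at most 1.87% of the combined counts for Aldoa, Pgk1, Eno1, Pkm, Ldha and Tpi1. For Pfkl they were between 6.54% and 19.1%, for Hk1, where the match is its antisense gene Hk1os, between 1.82% and 15.3%, and for Gapdh, with 103 copies, between 1.04% and 14.5%, so the levels of these 3 are less certain. Of the exon bases of Pkm 15.3% overlap another gene, and fragments there were not assigned.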

How the data were processed

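RNA of sorted peritoneal B cells was measured in 21 libraries, grouped by their sample labels. The authors used fastp for trimming, STAR with GRCm39 for alignment and featureCounts 1.6.1 with GENCODE vM32 for counting, and the deposited values are whole-number counts per gene without normalization. The headers show counting without strand, so antisense neighbours cannot be told apart. The paper describes amplified full-length cDNA and the labels poly-T selected mRNA, so the selection step is uncertain. Symbols came from GENCODE vM39 (56310 of 56953 genes). The members and gene lists were chosen with earlier results of these data known.

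The counts went into edgeR 4.0.16 under R 4.3.3, with limma 3.58.1. TMM factors were computed after filterByExpr by group, and genes were tested by robust quasi-likelihood fits with p-values adjusted by Benjamini-Hochberg over all genes tested, at a threshold of 0.05. The subsets of a genotype were fitted together, as were both genotypes of a subset, and B-1a and B-1b cells of both genotypes for the difference of effects. CPM used TMM over 21 libraries, log2 CPM a prior count of 2, and CPM per kb the exon length in the files. The procedure was also run on simulated data, which covered neither the WT subset comparisons nor changes smaller than a doubling. Named genes were the 10 members, of other pathway lists up to 3 per direction that passed, and 8 fixed genes (Gapdh, Tpi1, Gpi1, Pgam1, Ldhb, Hif1a, Myc, Txnip). Alternatives were DESeq2 1.42.0, no filter, RLE, TMM without immunoglobulin genes, a replicate block, all 21 libraries in one fit, each library left out, and fits with WT library numbers 1 and 2 left out. Same-numbered WT libraries deviated together (r between 0.20 and 0.58 over 8 pairs of groups). Over both genotypes, pairs of the same genotype with different numbers also reached r = 0.58, and 11 of 54 exceeded 0.1. These r values therefore cannot show whether the numbers pair the subsets, and the labels do not say so. A fit of the other 16 libraries was added after the values had been seen. Copies were sought with BLAST 2.17.0. No label says that libraries of a group came from separate mice, so p-values measure the spread between libraries.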

Additional observations from a re-analysis of the deposited data

How the results depend on the processing

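Of the 10 genes, 1 passed between TET2-KO B-1a and B-2 cells, and 0 did without the filter on low counts or with all 21 libraries in one fit, 0 to 1 with 1 library left out, and 2 in the 16-library fit, which also called 1 in B-1b against B-2 and 1 in B-1a against B-1b cells. Leaving out the 5 libraries labelled WT 1 or WT 2, the WT comparisons called 2 (B-1a against B-2), 1 (B-1b against B-2) and 1 (B-1a against B-1b), where with all WT libraries 0 passed. Over all 10 genes and 10 comparisons, 662 of 700 values under alternatives other than leaving out 1 library kept their direction and side of the threshold and 31 changed sign.

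When these 5 were left out, 18 of 70 log2 fold changes of the 10 genes turned sign: 5 of 10 in WT B-1a against B-2, 5 in WT B-1a against B-1b, 3 in B-1b and 1 in B-2 cells between genotypes, and 4 of the interaction. Among them were Slc2a1 in WT B-1a against B-2 (0.81) and in B-2 TET2-KO against WT (0.18), and Slc2a3 in WT B-1a against B-1b cells (-0.92). Near 0, Slc2a3 in TET2-KO B-1b against B-2 cells was at 0.0093 in the fit of 21 and 0.011 in that of 16 libraries, and Pfkl in TET2-KO B-1a against B-2 cells at 0.012 in the latter. The cause was not tested.

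Labels share replicate numbers between groups. Deviations of same-numbered libraries correlated over 0.1 in 8 of 8 WT pairs, but in 4 of 10 TET2-KO pairs (r between -0.11 and 0.22). The main fits used groups only, without pairing, and the number entered every comparison as an alternative only. With the number as a replicate block, Slc2a3 in WT B-1a against B-1b cells was at -0.0031, Pfkl in TET2-KO B-1a against B-2 at 0.0075, Pkm in TET2-KO B-1a against B-1b at 0.058, and Slc2a3 in B-1b TET2-KO against WT at 0.17. In WT and in the other comparisons the block changed no count of the 10 genes that passed.

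With 1 library left out, values spanned 0 in TET2-KO B-1a against B-1b cells for Aldoa (-0.035 to 0.16), Eno1 (-0.052 to 0.20), Ldha (-0.12 to 0.24), Pfkl (-0.58 to 0.036) and Pkm (-0.19 to 0.042). They did so in B-1a against B-2 cells for Hk1 (-0.053 to 0.31) and Pfkl (-0.21 to 0.074), and in B-1b against B-2 cells for Pfkl (-0.11 to 0.57) and Slc2a3 (-0.31 to 0.096). In WT cells Slc2a1 ran from -0.64 to 0.77 in B-1a against B-2 and from -0.41 to 0.99 in B-1b against B-2 cells, and Slc2a3 from -0.41 to 0.088, from -0.38 to 0.065 and, in B-1a against B-1b cells, from -0.23 to 0.22. Between genotypes Slc2a3 ran from -0.27 to 0.17 in B-1b and from -0.36 to 0.043 in B-2 cells, and Slc2a1 from -1.26 to 0.18 in B-2 cells.

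Counts over all genes depended on the fit. For TET2-KO B-1a against B-2 cells 1080 genes passed, 1699 without the filter, 1638 with the block, 3497 by DESeq2 and 3153 with 16 libraries. For B-1b against B-2 cells these were 399, 870, 667, 2857 and 1330, with 7 in the fit of all libraries, and for B-1a against B-1b cells 38, 123, 103, 139 and 100, with 6. RLE moved higher against lower calls in B-1a against B-2 cells from 604 and 476 to 543 and 571, DESeq2 to 855 and 2642, TMM without immunoglobulin genes to 558 and 534, and in B-1b against B-2 cells DESeq2 moved 282 and 117 to 537 and 2320. Between genotypes in B-1a cells 7 passed, 318 without the filter, 48 with the block, 191 by DESeq2, 80 with all libraries and 0 without those labelled WT 1 and WT 2. In B-1b and B-2 cells the unfiltered fits called 131 and 167, and for the difference of effects 144. Unfiltered WT fits called 107, 63 and 71. With 1 library left out, the TET2-KO counts ran from 608 (without B-2 replicate 2) to 1189, from 177 (without B-2 replicate 2) to 424 and from 15 (without B-1b replicate 1) to 57, those between genotypes from 0 (without B-1a TET2-KO replicate 2 or 3) to 6 in B-1a cells and from 0 to 576 (without B-2 WT replicate 4) in B-2 cells, and the others stayed at 0. Leaving out B-2 TET2-KO replicate 1 also gave 685 and 210, B-1a replicate 2 gave 680, B-1b replicate 1 gave 229, and B-2 replicate 4 gave 258. Myc, Pdk3 and Bnip3 missed the threshold in the fit of all libraries. Hk2, with as few as 28 counts in a library, had the widest intervals of the 10 genes in the TET2-KO comparisons.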
